A study of Mus musculus with 12 samples.

Results

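Signals of 8 genes that make or sense prostaglandins and sphingosine 1-phosphate were followed in mouse embryonic fibroblasts (MEFs) on Illumina MouseRef-8 v2.0 BeadChips. The list held Pla2g4a, Ptgs1, Ptgs2, Ptges, Ptgis, Ptger4, Sphk1 and Sphk2. The genes were chosen by name with earlier results of these 12 arrays known, and each gene was represented by the probe selected on its mean signal over the 12 arrays. The tests below are therefore rows of a fit across all genes and no independent evidence for this list. Of the 8 genes, 7 had a probe with that symbol in the array's annotation, 12 probes in all. Ptgs1 had none and was not analysed here. Of the 7 genes, 5 passed the detection filter (a detection p-value, the chance that a blank probe is as bright, under 0.05 on each array of 1 or more groups) and were tested among 10031 features on 12 arrays.

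MEFs of 3 genotypes were compared, WT, Rela-/-Nfkb2-/- and Rela-/-Relb-/-Rel-/-, all of the C57BL/6 strain and immortalized by the 3T3 protocol from midgestation embryos. Rela-/-Nfkb2-/- cells lack the NF-kB subunit RelA and the p100 precursor, and Rela-/-Relb-/-Rel-/- cells lack RelA, RelB and cRel, the subunits that carry a transactivation domain. Each genotype was left untreated or given recombinant TNF at 10 ng/ml for 6 h, with 2 arrays per group. Each genotype may be 1 immortalized line, in which case effects of the deleted genes and differences between lines cannot be told apart. Nothing in the labels says that replicates were separate cultures, so p-values rest on array-to-array spread alone, which may be technical.

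Prostaglandins are made stepwise. Cytosolic phospholipase A2 (Pla2g4a) frees arachidonic acid from membranes, a cyclooxygenase (the constitutive Ptgs1 or the inducible Ptgs2, also called COX-2) turns it into prostaglandin H2, and a terminal synthase gives the final product, prostaglandin E2 with Ptges and prostacyclin with Ptgis. Prostaglandin E2 acts through receptors such as EP4, the product of Ptger4. Sphingosine kinases Sphk1 and Sphk2 phosphorylate sphingosine, a breakdown product of ceramide, to sphingosine 1-phosphate, a lipid that signals through its own family of receptors. In fibroblasts, COX-2 and Ptges are known as genes that inflammatory cytokines induce.

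The RefSeq table of promoter windows (GRCm38.p6, from 250 bases before to 50 bases after each transcript start) matched 7 of the 8 genes with 13 windows. Ptgis was the gene without an entry. The 250 bases before the start are shown for Ptgs2, Ptges and Sphk1, the genes whose signal changed after TNF, 5′ to 3′ on the gene's strand. Capitals mark matches to the motifs searched on both strands. Sphk1 has 5 windows, and the most upstream one is shown. Ptgs2 lies at chr1:150099781-150100030 on the plus strand, Ptges at chr2:30903298-30903547 on the minus strand and Sphk1 at chr11:116530850-116531099 on the plus strand.
Ptgs2: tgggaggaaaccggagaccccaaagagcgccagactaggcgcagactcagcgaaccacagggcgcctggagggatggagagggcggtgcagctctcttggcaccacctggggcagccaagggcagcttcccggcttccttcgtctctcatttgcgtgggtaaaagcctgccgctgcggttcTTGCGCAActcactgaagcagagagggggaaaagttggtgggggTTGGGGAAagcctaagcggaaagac
Ptges: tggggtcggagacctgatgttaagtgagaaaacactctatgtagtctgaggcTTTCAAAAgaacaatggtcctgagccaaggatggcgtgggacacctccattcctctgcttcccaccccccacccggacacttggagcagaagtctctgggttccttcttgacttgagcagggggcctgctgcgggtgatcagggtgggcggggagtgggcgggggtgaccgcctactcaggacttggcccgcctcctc
Sphk1: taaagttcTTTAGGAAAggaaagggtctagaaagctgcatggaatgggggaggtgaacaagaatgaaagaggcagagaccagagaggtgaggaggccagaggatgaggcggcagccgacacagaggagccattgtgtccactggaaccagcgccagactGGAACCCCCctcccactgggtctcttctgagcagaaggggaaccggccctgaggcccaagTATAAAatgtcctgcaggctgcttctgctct

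Positions are counted from the transcript start of the table, with +1 as its first base. The NF-kB motif GGNNNTTCC was matched in 1 of the 13 windows, at positions -91 to -83 of the Sphk1 window shown, against 18.5% of all 32851 windows. The C/EBP motif TTNCNNAA was matched in 6 of the 13 (40.7% of all windows), at -69 to -62 and -25 to -18 of Ptgs2, at -198 to -191 of Ptges, in overlapping copies at -242 to -234 of the Sphk1 window shown, in the 2 most downstream windows of Sphk1, which overlap and hold the same pair of matches, and in 1 window of Pla2g4a. The TATA motif TATAAA lay at -31 to -26 of the Sphk1 window shown, and 2 of the 13 windows held it (13.6% of all). The CRE half-site TGACGT and the E-box CACGTG overlapped at 13 to 22 bases after the Ptgs2 start, outside the stretch shown, and these motifs were matched in 2 and 3 of the 13 windows (7.51% and 7.15% of all). The E-box count includes the 2 most downstream windows of Sphk1, where the match is the same site. The AP-1 motif TGANTCA was matched in 2 overlapping windows of Sphk1 that start further downstream (7.81% of all), at the same site in both. A match is a run of letters and not a measured binding site.

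The tissue label was checked against markers. Of 12 fibroblast markers with a probe, 8 were above background on all 12 arrays, among them Col1a1 and Vim, and 1, Fap, on none. Ptprc, Adgre1 and Itgam of leukocytes, Pecam1, Cdh5 and Vwf of endothelium and Krt18 of epithelium were above background on none. Other markers of these cell types were detected, namely endothelial Kdr (log2 signal 5.96 to 6.84, 12 arrays) and Tek (5.53 to 7.58, 10 arrays), epithelial Cdh1 (6.24 to 6.74, 12 arrays) and leukocyte Aif1 (5.59 to 6.24, 6 arrays) and Lyz2 (1 array). Thy1, Krt8 and Krt14 were each above background on 4 of the 12 arrays, at up to 14.39, 11.60 and 10.75. The part of other cell types in the results was not tested. Rela was at a log2 signal of 12.60 to 13.22 in WT and 10.05 to 10.80 in the mutant lines, Relb passed background on a single array (1 of 4) of the triple mutant, and Rel was above background on no array of any genotype. Nfkb2 was above background on all 4 arrays of Rela-/-Nfkb2-/- cells, at 7.23 to 8.83, against 8.64 to 10.01 in WT and 6.97 to 8.57 in the triple mutant, which carries no Nfkb2 deletion by its label. The Rela signal was thus lower in both mutant lines than in WT, without overlap, but stayed above background on all of their arrays. The Nfkb2 signal did not set the line with its deletion apart, since it overlapped that of the triple mutant. It is not known here whether the probes lie in the deleted parts of the genes, and a probe outside them would check nothing. Between 11637 and 12599 of 25697 probes were above background per array. The difference between replicate arrays had an SD over features of 0.27 to 0.30 in WT and 0.46 to 0.67 in the mutant lines.

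**Figure D1:**
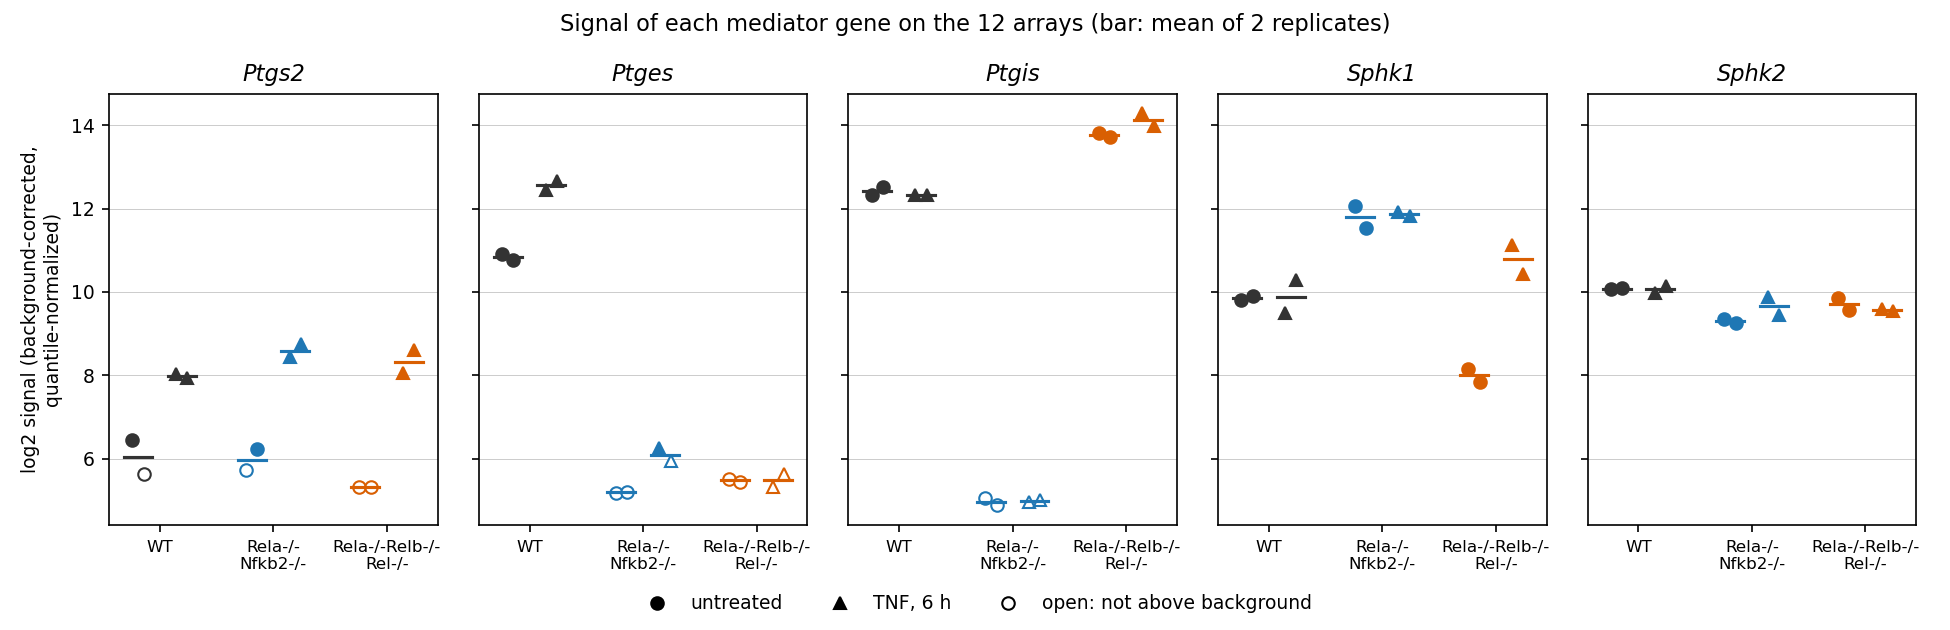
Log2 signal (y axis, background-corrected and quantile-normalized) of each of the 5 tested genes on every array, by genotype along the x axis. Circles are untreated and triangles TNF-treated arrays, bars are means of 2 replicates, and open symbols are arrays on which the probe was not above background. Ptgs2 was higher on the TNF arrays of all 3 genotypes, Ptges was above background on all 4 WT arrays, Ptgis on none of the 4 Rela-/-Nfkb2-/- arrays, and Sphk1 differed between TNF and untreated arrays without overlap in Rela-/-Relb-/-Rel-/- cells.

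Pla2g4a, which supplies arachidonic acid, had 1 probe, which stayed at background on all 12 arrays. Its log2 signal lay between 4.81 and 5.24 and its detection p-value between 0.204 and 0.929. The prostaglandin E2 receptor gene Ptger4 also had 1 probe that was not above background on any array, with log2 signals of 4.80 to 4.91. Neither gene was tested, and their levels were not detectable with these probes. A second probe of Ptgs2, 2 further probes of Sphk1 and a second probe of Sphk2 were not above background on any array either, so each of these genes rests on 1 probe.

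Ptgs2, the inducible cyclooxygenase, rose after TNF in all 3 genotypes, including the cells that lack RelA, RelB and cRel. In WT cells its log2 signal was 6.45 and 5.63 untreated and 8.04 and 7.94 with TNF. The Rela-/-Nfkb2-/- values were 5.73 and 6.22 untreated and 8.43 and 8.76 with TNF. Cells without RelA, RelB and cRel gave 5.32 and 5.32 untreated and 8.06 and 8.60 with TNF. The untreated and TNF arrays did not overlap in any genotype, and the 6 TNF arrays were all higher than the 6 untreated ones. The probe was above background on all 6 TNF arrays, on 1 of 2 untreated WT arrays, 1 of 2 untreated Rela-/-Nfkb2-/- arrays and no untreated Rela-/-Relb-/-Rel-/- array.

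The fitted TNF response of Ptgs2 was 1.94 ± 0.30 (log2, SE) in WT (3.85-fold, limma adjusted p = 0.0195) and 2.62 ± 0.30 in Rela-/-Nfkb2-/- cells (6.13-fold, adjusted p = 0.000651). In both, only 1 of 2 untreated arrays was above background, so these folds depend on the background correction. Over the alternative fits the change was 1.31 to 2.37 in WT and 1.85 to 3.06 in Rela-/-Nfkb2-/- cells. In Rela-/-Relb-/-Rel-/- cells, where the untreated arrays had only a bound, the gene was at least 5.33-fold higher with TNF (adjusted p = 0.00221). For such a bound, each dim array was given its own signal or the lowest signal above background on that array, whichever was brighter. The WT response missed the threshold when 1 array was left out, namely either TNF array of WT (adjusted p = 0.123 without replicate 1 and 0.148 without replicate 2) or WT untreated replicate 2 (0.147). The responses were not shown to differ between genotypes. WT minus Rela-/-Nfkb2-/- was -0.67 (95% confidence interval -1.63 to 0.29, adjusted p = 0.476), WT minus Rela-/-Relb-/-Rel-/- was -1.06 (-2.02 to -0.10, adjusted p = 0.418), and the difference between the mutant lines was -0.39 (-1.35 to 0.57, adjusted p = 0.656). Both differences with the triple mutant use its untreated arrays at background, so their size depends on the background correction. In the authors' normalized values they were -1.87 for WT (limma adjusted p = 0.272) and -1.18 for Rela-/-Nfkb2-/- cells (0.305). Before TNF, Ptgs2 differed from WT by -0.07 in Rela-/-Nfkb2-/- cells (-0.75 to 0.61, adjusted p = 0.916). In the triple mutant, not above background there, it was at least 1.10-fold lower than in WT, which missed the threshold (adjusted p = 0.0909). The fitted value, -0.72, depended on the untreated WT arrays, with -1.13 without replicate 2 (adjusted p = 0.0268) and -0.31 without replicate 1 (adjusted p = 0.518), and it was -1.51 in the authors' normalized values (adjusted p = 0.0206).

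Ptges, the inducible prostaglandin E2 synthase, was high in WT cells and rose there with TNF, while both mutant lines were at or near background. In WT its log2 signal was 10.90 and 10.77 untreated and 12.45 and 12.67 with TNF, with no overlap. Rela-/-Nfkb2-/- cells gave 5.18 and 5.21 untreated and 6.26 and 5.94 with TNF. Rela-/-Relb-/-Rel-/- cells gave 5.51 and 5.45 untreated and 5.31 and 5.64 with TNF. Of the 8 mutant arrays, 1 was above background, a TNF array of Rela-/-Nfkb2-/- cells. Every mutant array lay below every WT array. In a bulk sample, fewer cells that express a gene and less RNA per cell cannot be told apart.

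In untreated cells Ptges was lower than in WT by at least 33.3-fold for Rela-/-Nfkb2-/- (adjusted p = 1.07e-07) and at least 30.3-fold for Rela-/-Relb-/-Rel-/- (adjusted p = 6.3e-08). The 2 differences share the WT arrays. TNF raised Ptges by 1.72 ± 0.17 in WT (3.31-fold, adjusted p = 0.00192). In Rela-/-Nfkb2-/- cells the rise was at least 1.25-fold (fitted change 0.90 ± 0.17, adjusted p = 0.00777), with 1 of 2 TNF arrays above background, and it missed the threshold without Rela-/-Nfkb2-/- TNF replicate 1 (adjusted p = 0.0659). In Rela-/-Relb-/-Rel-/- cells neither group was above background.

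The WT response of Ptges exceeded that of Rela-/-Relb-/-Rel-/- cells by 1.73 ± 0.25 (adjusted p = 0.0164), a difference against signals at background. It missed the threshold without WT untreated replicate 1 (adjusted p = 0.0814), WT untreated replicate 2 (0.0927), WT TNF replicate 2 (0.096) or Rela-/-Relb-/-Rel-/- untreated replicate 1 or 2 (0.0783 and 0.0776). The WT response minus that of Rela-/-Nfkb2-/- cells was 0.82 (95% confidence interval 0.26 to 1.38, adjusted p = 0.115). It was 0.08 in the authors' normalized values (adjusted p = 0.955), and 1.17 with a background offset of 50 (adjusted p = 0.0158). A second Ptges probe was above background on the 4 WT arrays alone, at 8.30 and 8.87 untreated and 9.64 and 10.16 with TNF. On that probe, an alternative added after seeing the data, the WT response was 1.31 (adjusted p = 0.0334), the Rela-/-Nfkb2-/- response was 0.10 (adjusted p = 0.798), and the WT minus Rela-/-Relb-/-Rel-/- difference was 1.24 (adjusted p = 0.166).

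Ptgis, the prostacyclin synthase, did not pass the test for TNF in any genotype but separated the 3 genotypes. In WT its log2 signal was 12.32 and 12.51 untreated and 12.33 and 12.33 with TNF. In Rela-/-Relb-/-Rel-/- cells it was 13.82 and 13.71 untreated and 14.29 and 13.97 with TNF. In Rela-/-Nfkb2-/- cells the 4 arrays lay between 4.88 and 5.06, none above background. The 3 genotypes did not overlap on any array.

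In untreated cells Ptgis was at least 99.8-fold lower in Rela-/-Nfkb2-/- than in WT (adjusted p = 1.99e-08). It was 1.34 ± 0.16 higher in Rela-/-Relb-/-Rel-/- than in WT (2.54-fold, adjusted p = 0.000166). The TNF change was -0.09 in WT (95% confidence interval -0.45 to 0.27, adjusted p = 0.968) and 0.37 in Rela-/-Relb-/-Rel-/- cells (0.01 to 0.72, adjusted p = 0.306). Before TNF, Rela-/-Nfkb2-/- cells thus had Ptges and Ptgis at background, and Rela-/-Relb-/-Rel-/- cells had Ptges at background and Ptgis above its WT level. Ptges2, a further gene of prostanoid synthesis, was above background in untreated Rela-/-Nfkb2-/- cells, at 8.09 and 7.82.

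Sphk1, the kinase usually described as the cytoplasmic and growth factor-responsive form, rose with TNF in Rela-/-Relb-/-Rel-/- cells and started from a different level in each line. In WT its log2 signal was 9.81 and 9.91 untreated and 9.50 and 10.28 with TNF, which overlap. The double mutant Rela-/-Nfkb2-/- stood at 12.05 and 11.53 untreated and 11.92 and 11.81 with TNF, which overlap too. The triple mutant Rela-/-Relb-/-Rel-/- stood at 8.15 and 7.85 untreated and 11.13 and 10.43 with TNF, with no overlap. The triple mutant was thus the lowest group untreated and, with TNF, lay above both WT groups and below the 4 Rela-/-Nfkb2-/- arrays.

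The TNF response of Sphk1 in Rela-/-Relb-/-Rel-/- cells was 2.78 ± 0.31 (6.88-fold, adjusted p = 0.00406), rank 9 by size among all features. With the same change, it missed the threshold in a fit of the compared groups alone (adjusted p = 0.158), as did Ptgs2 in these cells (adjusted p = 0.158), and the methods' t-test called neither after adjustment. The change was 0.03 in WT (95% confidence interval -0.68 to 0.75, adjusted p = 1) and 0.07 in Rela-/-Nfkb2-/- cells (-0.64 to 0.79, adjusted p = 0.908). The difference of responses was -2.75 ± 0.45 for WT minus Rela-/-Relb-/-Rel-/- (adjusted p = 0.0297) and -2.71 ± 0.45 for Rela-/-Nfkb2-/- minus Rela-/-Relb-/-Rel-/- (adjusted p = 0.0114). The first missed the threshold in 8 of the 12 fits that left out 1 array, with adjusted p of 0.0609 to 0.147. Those arrays were both WT untreated, WT TNF replicate 1, both Rela-/-Nfkb2-/- TNF, both Rela-/-Relb-/-Rel-/- untreated and Rela-/-Relb-/-Rel-/- TNF replicate 1. The second missed it without Rela-/-Relb-/-Rel-/- untreated replicate 2 (adjusted p = 0.0534). Relative to untreated WT, Sphk1 was 1.93 ± 0.31 higher in Rela-/-Nfkb2-/- cells (3.82-fold, adjusted p = 0.00225) and 3.63-fold lower without RelA, RelB and cRel (-1.86 ± 0.31, adjusted p = 0.00151).

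Sphk2, the sphingosine kinase found largely in the nucleus and mitochondria, varied least. Its log2 signal was 10.06 and 10.10 untreated and 9.97 and 10.15 with TNF in WT cells. Its values for Rela-/-Nfkb2-/- were 9.34 and 9.26 untreated and 9.87 and 9.44 with TNF. Those for Rela-/-Relb-/-Rel-/- were 9.85 and 9.57 untreated and 9.60 and 9.54 with TNF. All 4 WT arrays lay above the 8 mutant arrays. The TNF change was -0.02 for WT (95% confidence interval -0.43 to 0.39, adjusted p = 1), 0.36 for Rela-/-Nfkb2-/- (-0.05 to 0.76, adjusted p = 0.203) and -0.13 for Rela-/-Relb-/-Rel-/- (-0.54 to 0.27, adjusted p = 0.83). Untreated Sphk2 was 1.72-fold lower in Rela-/-Nfkb2-/- than in WT (-0.78 ± 0.18, adjusted p = 0.014). That call was lost without WT untreated replicate 1 (adjusted p = 0.0683), WT untreated replicate 2 (0.0846) or Rela-/-Nfkb2-/- untreated replicate 2 (0.055). In Rela-/-Relb-/-Rel-/- the untreated difference was -0.38 (-0.78 to 0.03, adjusted p = 0.138).

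**Figure D2:**
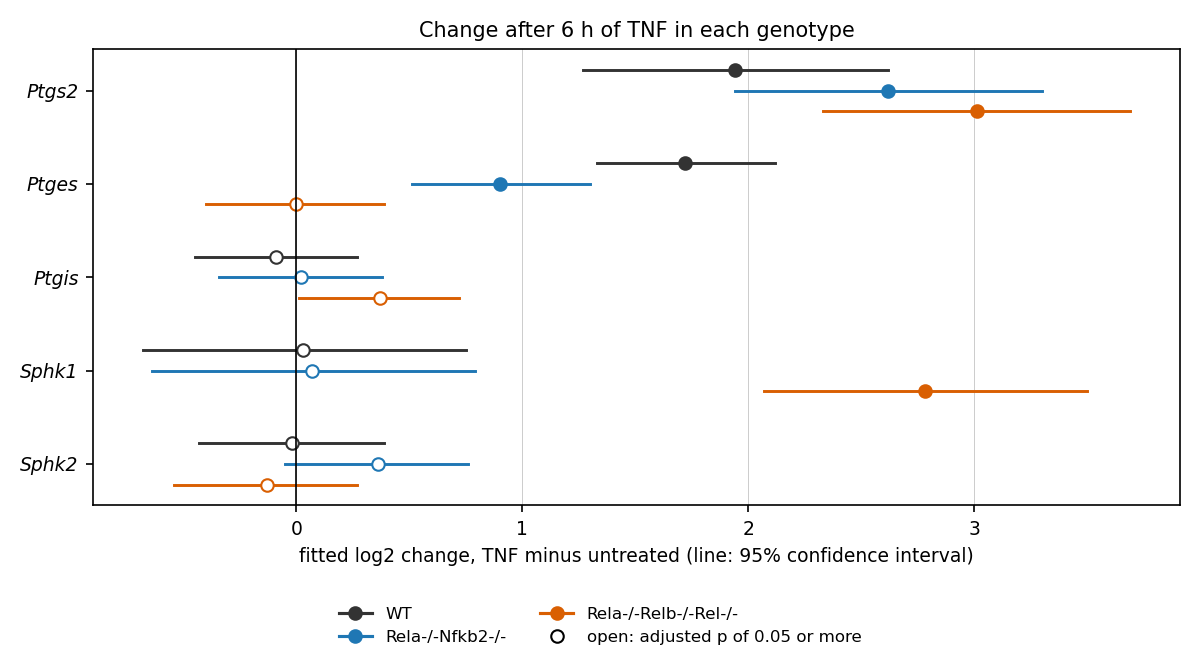
Fitted log2 change after 6 h of TNF (x axis) of the 5 tested genes (y axis) in each genotype, with 95% confidence intervals from limma. Filled points have an adjusted p under 0.05. Ptgs2 rose in all 3 genotypes (1.94, 2.62 and 3.01), Ptges in WT and Rela-/-Nfkb2-/- cells (1.72 and 0.90), and Sphk1 in Rela-/-Relb-/-Rel-/- cells (2.78). The Ptgs2 change in Rela-/-Relb-/-Rel-/- cells and the Ptges change in Rela-/-Nfkb2-/- cells start from untreated arrays at background, and points of Ptges and Ptgis where neither group was above background measure no level.

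Counted over the 5 tested genes, 2 rose with TNF in each genotype. These were Ptgs2 and Ptges in WT, where 0.857% of all features rose, Ptgs2 and Ptges in Rela-/-Nfkb2-/- cells, where 8.03% rose, and Ptgs2 and Sphk1 in Rela-/-Relb-/-Rel-/- cells, where 1.39% rose. The median change over the 5 genes was 0.03, 0.36 and 0.37, against -0.04, 0.00 and -0.01 over all features. The responses differed for 0 of 5 genes between WT and Rela-/-Nfkb2-/- cells in the limma fit (1 at an unadjusted p under 0.05, Ptges), where 4.09% of all features differed. They differed for 2 of 5 between WT and Rela-/-Relb-/-Rel-/- cells (0.847% of all features) and for 1 of 5 between the mutant lines (4.97% of all features). Before TNF, 4 of 5 differed between Rela-/-Nfkb2-/- and WT cells, where 20.5% of all features differed, and 3 of 5 between Rela-/-Relb-/-Rel-/- and WT cells, where 37.7% did. Since the genes were picked with these results known, the shares describe the list and carry no test.

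**Figure D3:**
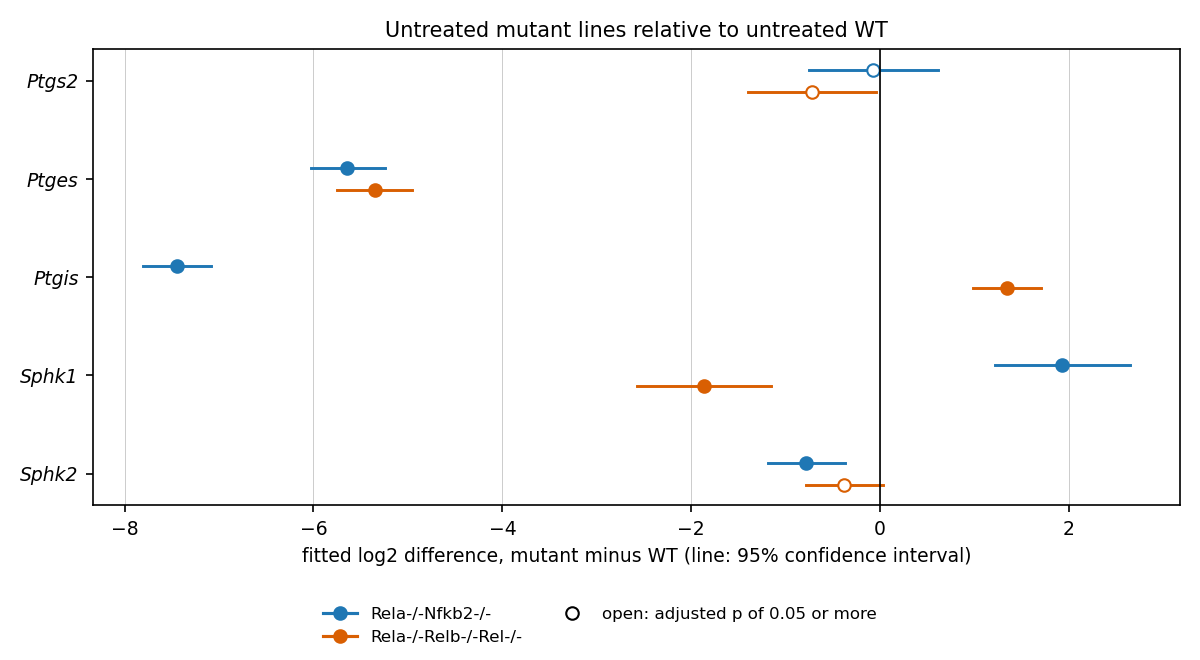
Fitted log2 difference between untreated mutant and untreated WT cells (x axis) for the 5 tested genes (y axis), with 95% confidence intervals from limma. Filled points have an adjusted p under 0.05. Ptges lay at -5.64 and -5.35 in the 2 lines, Ptgis at -7.45 for Rela-/-Nfkb2-/- and 1.34 for Rela-/-Relb-/-Rel-/-, and Sphk1 at 1.93 and -1.86; values for probes at background in a mutant line depend on the background correction.

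Within each gene the order of the 6 groups was as follows. For Ptgs2, TNF-treated Rela-/-Nfkb2-/- (mean 8.59) and Rela-/-Relb-/-Rel-/- cells (8.33) overlapped at the top, followed by TNF-treated WT (7.99), then untreated WT (6.04) and untreated Rela-/-Nfkb2-/- (5.98), which overlapped, and untreated Rela-/-Relb-/-Rel-/- (5.32). For Ptges, the order was TNF-treated WT (12.56), untreated WT (10.83), TNF-treated Rela-/-Nfkb2-/- (6.10) and then the 3 groups not above background. For Ptgis, TNF-treated (14.13) and untreated (13.76) Rela-/-Relb-/-Rel-/- cells led, the WT groups overlapped (12.42 and 12.33), and both Rela-/-Nfkb2-/- groups were at background. For Sphk1, both Rela-/-Nfkb2-/- groups led and overlapped (11.87 and 11.79), followed by TNF-treated Rela-/-Relb-/-Rel-/- (10.78), the overlapping WT groups (9.89 and 9.86) and untreated Rela-/-Relb-/-Rel-/- cells (8.00). For Sphk2, the WT groups overlapped at the top (10.08 and 10.06), the next 3 groups lay between 9.57 and 9.71, and untreated Rela-/-Nfkb2-/- was lowest (9.30). Levels are comparable within a probe and not between probes.

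The genes most like each of the 5 were found by Pearson's r of log2 signal over the 12 arrays, a description in which groups and lines are shared by all points. Mafg (r = 0.922), Itga2 (0.911) and Cpsf2 (0.901) were most like Ptgs2. The integrin subunit gene Itga2 averaged 5.15 untreated and 7.98 with TNF in WT, with 5.10 and 8.83 for Rela-/-Nfkb2-/- and 5.21 and 7.78 for the triple mutant. Kcnh1 (0.995), Slc16a13 (0.991) and Rbfox1 (0.990) were most like Ptges, and the potassium channel gene Kcnh1 averaged 8.44 untreated and 9.95 with TNF in WT against 4.91 to 5.37 in the mutant lines. The homeobox genes Hoxb5 (0.996) and Hoxb6 (0.995) and Ccdc68 (0.993) were most like Ptgis, with Hoxb5 at 9.36 and 9.75 in WT, 5.17 and 5.29 in Rela-/-Nfkb2-/- cells, and 10.61 and 10.71 without RelA, RelB and cRel. Eml4 (0.992), Ube2o (0.963) and Cdca7 (0.956) were most like Sphk1, and Gne (0.970), Shkbp1 (0.953) and Tufm (0.951) most like Sphk2.

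Other genes of the same pathways were taken from 6 lists with 123 genes, of which 71 were tested. In WT cells limma called none of the 71 after TNF, with 11 at an unadjusted p under 0.05, and the methods' t-test gave 13 unadjusted and 0 after adjustment. Over all features 0.857% rose and 0.339% fell in WT. In Rela-/-Nfkb2-/- cells 4 of the 71 rose and 8 fell, where 8.03% of all features rose and 11.6% fell. For the triple mutant these counts were 3 and 1, where 1.39% of all features rose and 0.798% fell. The median change of the 71 was -0.03, -0.03 and -0.09. Untreated, 20 of the 71 (28.2%) differed between Rela-/-Nfkb2-/- and WT cells, against 20.5% of all features, and 38 (53.5%) set the triple mutant apart from WT, against 37.7%.

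**Figure D4:**
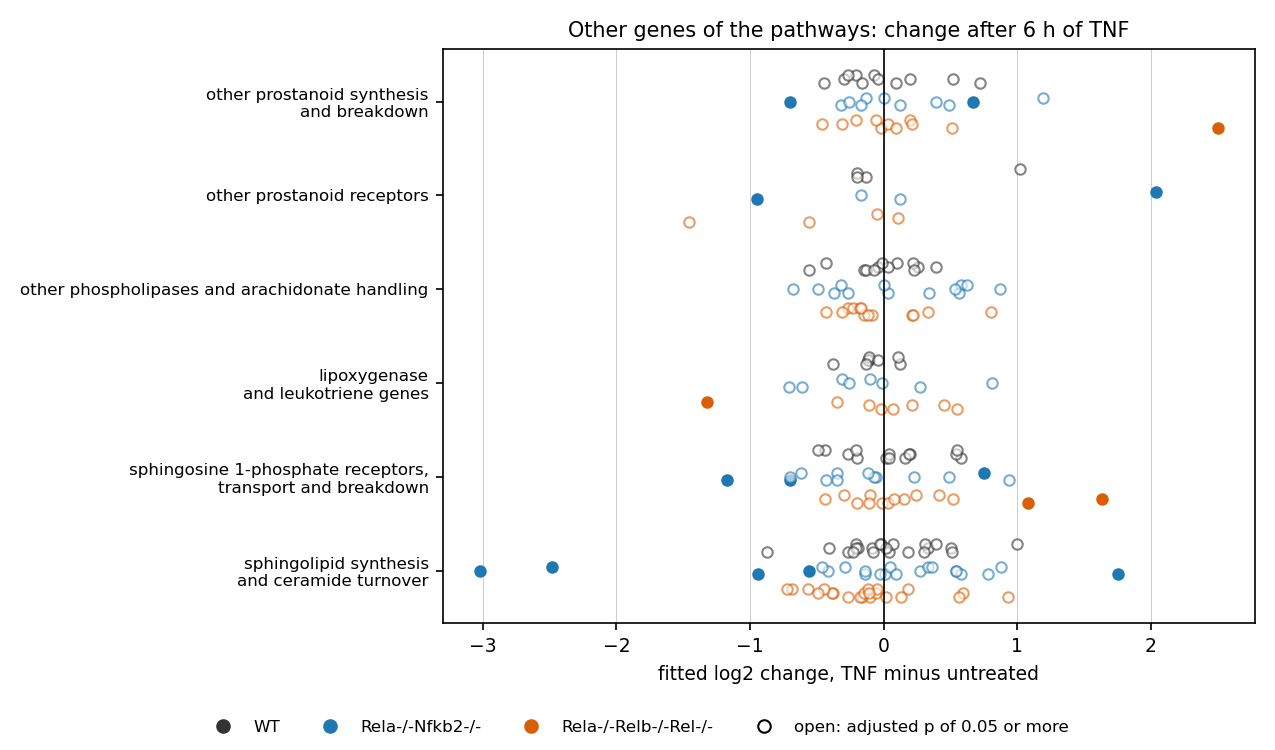
Fitted log2 change after 6 h of TNF (x axis) of each tested gene of the 6 pathway lists (y axis), 1 point per gene and genotype, with filled points for an adjusted p under 0.05. No WT point is filled, 12 are for Rela-/-Nfkb2-/- and 4 for Rela-/-Relb-/-Rel-/-, and the changes span -3.02 to 2.50. The ends of this span, Smpdl3a and Akr1c18, each involve a group at or near background.

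Among 11 tested genes of prostanoid synthesis and breakdown, 1 rose and 1 fell with TNF in Rela-/-Nfkb2-/- cells and 1 rose in Rela-/-Relb-/-Rel-/- cells. Over all features, the corresponding shares were 8.03% up and 11.6% down for the double mutant, with 1.39% up for the triple mutant. Akr1c18, an aldo-keto reductase best known in the mouse for inactivating progesterone, was at 5.23 and 5.28 untreated and 7.74 and 7.77 with TNF in Rela-/-Relb-/-Rel-/- cells, and above background on no other array. It was at least 3.58-fold higher with TNF there (adjusted p = 0.000398), and its response differed from that of WT (-2.41 ± 0.22 for WT minus the triple mutant, adjusted p = 0.00357). Cbr1, a carbonyl reductase that acts on prostaglandin E2, fell by 0.70 in Rela-/-Nfkb2-/- cells (adjusted p = 0.0148), and the thromboxane synthase gene Tbxas1 rose by 0.67 (adjusted p = 0.0188). Slco2a1, the transporter that takes up prostaglandins, ranged from 11.83 to 12.57 in WT, from 11.77 to 12.05 in Rela-/-Relb-/-Rel-/- cells and from 5.72 to 6.48 in Rela-/-Nfkb2-/- cells, 4 arrays each. Its untreated level there minus that of WT was -5.76 ± 0.26 on the log2 scale (adjusted p = 7.99e-07). Signals in Rela-/-Nfkb2-/- cells lay near background, with detection p of 0.0113 and 0.0514 untreated and 0.0276 and 0.0539 with TNF. The size of this difference thus depends on the background correction. In untreated Rela-/-Relb-/-Rel-/- relative to WT cells, the prostaglandin D2 synthase Ptgds was up by at least 1.48-fold (adjusted p = 0.0115) and Ptges2 by 0.55 on the log2 scale (adjusted p = 0.0272).

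Of 8 prostanoid receptor genes with a probe, 4 were tested. Ptgir, the prostacyclin receptor, was at 8.44 and 8.95 untreated and 9.32 and 10.11 with TNF in WT, a change of 1.02 ± 0.28 (adjusted p = 0.182). In Rela-/-Nfkb2-/- cells it was at 5.55 and 5.60 untreated and 7.76 and 7.48 with TNF, at least 3.57-fold higher with TNF (adjusted p = 0.0016). On the 4 Rela-/-Relb-/-Rel-/- arrays it was at 5.21 to 5.64, none above background. Among the untreated groups Ptgir was thus above background in WT alone. Tbxa2r, the thromboxane receptor, was at least 1.66-fold lower with TNF in Rela-/-Nfkb2-/- cells (adjusted p = 0.0225). Ptger3, a prostaglandin E2 receptor gene, was above background only in Rela-/-Relb-/-Rel-/- cells, at 7.85 and 9.79 untreated and 5.90 and 8.82 with TNF.

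Of 13 tested phospholipase and arachidonate genes, limma called 0 for TNF in each genotype, with 1, 2 and 1 at an unadjusted p under 0.05 in WT, Rela-/-Nfkb2-/- and Rela-/-Relb-/-Rel-/- cells and 0 by the methods' t-test before adjustment. Mgll, the lipase that splits 2-arachidonoylglycerol, was 3.30 ± 0.27 higher in untreated Rela-/-Relb-/-Rel-/- than in WT cells (adjusted p = 1.29e-05) and 1.63 ± 0.27 higher in Rela-/-Nfkb2-/- cells (adjusted p = 0.00224). Among 8 tested lipoxygenase and leukotriene genes, Cysltr1, a cysteinyl leukotriene receptor, was at least 1.78-fold lower with TNF in Rela-/-Relb-/-Rel-/- cells (adjusted p = 0.03). Alox5ap, which presents arachidonic acid to 5-lipoxygenase, was at 9.01 to 10.00 on the WT arrays, at 6.04 to 7.12 in Rela-/-Nfkb2-/- cells, and above background on 1 of 4 Rela-/-Relb-/-Rel-/- arrays. Ephx2, a soluble epoxide hydrolase, was 3.81 ± 0.29 higher in untreated Rela-/-Relb-/-Rel-/- than in WT cells (adjusted p = 9.61e-06). Its untreated WT signals lay near background (detection p of 0.0313 and 0.0865), so the size of this difference depends on the background correction.

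Around sphingosine 1-phosphate, 14 genes for its receptors, transport and breakdown were tested. With TNF, 2 rose in Rela-/-Relb-/-Rel-/- cells, where 1.39% of all features rose, and 1 rose and 2 fell in Rela-/-Nfkb2-/- cells, where 8.03% rose and 11.6% fell. Plpp3, a lipid phosphate phosphatase that can remove the phosphate of sphingosine 1-phosphate, rose in Rela-/-Relb-/-Rel-/- cells. It went from 9.38 and 9.38 to 11.34 and 10.68 (1.63 ± 0.23, adjusted p = 0.00948), against 12.40 to 14.63 on the WT and Rela-/-Nfkb2-/- arrays. Acer2, an alkaline ceramidase that yields sphingosine, rose in Rela-/-Relb-/-Rel-/- cells too. It went from 6.70 and 6.46 to 7.84 and 7.48 (1.08 ± 0.21, adjusted p = 0.037), against 9.61 to 10.59 on the WT arrays. In WT the TNF change was 0.54 ± 0.23 for Plpp3 (limma adjusted p = 0.48) and 0.58 ± 0.21 for Acer2 (0.338). Neither response was shown to differ between WT and the triple mutant. WT minus triple mutant was -1.09 for Plpp3 (adjusted p = 0.259) and -0.5 for Acer2 (0.686). In Rela-/-Nfkb2-/- cells Acer2 fell from 5.72 and 5.78 to 4.98 and 5.13 (fitted change -0.70, adjusted p = 0.0475), with 1 of these 4 arrays above background, so that no fold can be given. In Rela-/-Nfkb2-/- cells the receptor gene S1pr2 rose by 0.75 (adjusted p = 0.0157) and Plpp2 fell by 1.17 (adjusted p = 0.00215). The S1pr2 change was 0.55 in WT (limma adjusted p = 0.255) and 0.41 in Rela-/-Relb-/-Rel-/- cells (0.276). Its responses were not shown to differ between any of the genotypes. S1pr5, another receptor gene, was above background on the 4 Rela-/-Relb-/-Rel-/- arrays alone, at 8.93 to 9.56.

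Of 22 tested genes of sphingolipid synthesis and ceramide turnover, 1 rose and 4 fell with TNF in Rela-/-Nfkb2-/- cells, against 8.03% and 11.6% of all features. In WT and Rela-/-Relb-/-Rel-/- cells limma called 0, with 3 and 7 at an unadjusted p under 0.05 and 4 and 2 by the methods' t-test before adjustment. Smpdl3a, an acid sphingomyelinase-like phosphodiesterase, went from 9.01 and 8.74 to 5.75 and 5.97 in Rela-/-Nfkb2-/- cells (-3.02 ± 0.21, adjusted p = 4.05e-05), while it lay at 7.50 to 8.30 in Rela-/-Relb-/-Rel-/- cells and was above background on no WT array. With TNF in Rela-/-Nfkb2-/- cells, Smpdl3a lay near background (detection p of 0.0977 and 0.0464), so the size of its fall depends on the background correction. Smpdl3b, its paralog, went from 10.17 and 9.21 to 7.61 and 6.80 in Rela-/-Nfkb2-/- cells (-2.48 ± 0.35, adjusted p = 0.00183). Sgms2, a sphingomyelin synthase, went from 7.69 and 7.37 to 9.21 and 9.34 in these cells (1.75 ± 0.23, adjusted p = 0.00123). The glucosylceramide synthase gene Ugcg fell by 0.94 in them (adjusted p = 0.00239). Smpd3, a neutral sphingomyelinase, differed from untreated WT by -3.78 ± 0.25 in Rela-/-Nfkb2-/- cells (adjusted p = 7.65e-06) and by 2.50 ± 0.25 in Rela-/-Relb-/-Rel-/- cells (adjusted p = 4.82e-05).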

How the data were processed

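RNA of 12 MEF samples was hybridized to Illumina MouseRef-8 v2.0 BeadChips (1 colour). The deposited table gives raw signal intensity per probe, exported by the authors from GenomeStudio, with a detection p-value for each, and a second deposited table gives intensities that the authors' service company quantile-normalized. Tool versions and the probes' genome build are not given in the sources used here. Raw signals were background-corrected and quantile-normalized with neqc (limma 3.58.1, R 4.3.3, offset 16). The filter kept 13387 of 25697 probes (detection p under 0.05 on both arrays of any 1 group), and a gene was its brightest kept probe (10031 features, 780 without a symbol). Symbols came from GEO's platform annotation, in which 23978 probes had 1 symbol and 1719 none. A model of 6 group means was fitted to all 12 arrays (6 residual degrees of freedom) with lmFit and eBayes, without a replicate block, with Benjamini-Hochberg adjustment over all features in each of 8 comparisons. The fit was tested on simulated data. The members and lists were chosen with earlier results of these data known. Named are all members with a probe, the 3 genes most like each tested one, and up to 6 genes per list by adjusted p. For the members, alternatives in background correction, normalization, probe filter, probe choice, fit, replicate block and test, and the omission of each array, were run one at a time. Slides are not named in the files, so a slide effect was not tested. The number of arrays limits the precision.

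Replicate numbers recur in every group, but the labels do not say what a number marks. Deviations from the group means of same-numbered untreated and TNF arrays correlated at 0.31 (WT), 0.67 (Rela-/-Nfkb2-/-) and 0.70 (Rela-/-Relb-/-Rel-/-). Same-numbered arrays also correlated between the 2 mutant lines (0.62 to 0.85) and not with those of WT (-0.19 to 0.00).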

Additional observations from a re-analysis of the deposited data

Results flagged for a closer look

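A tested difference between the TNF responses of 2 genotypes drew attention to 3 results. For Ptges, the WT response exceeded that of Rela-/-Relb-/-Rel-/- cells by 1.73 on the log2 scale (limma adjusted p = 0.0164), with 4 of 4 WT arrays and 0 of 4 triple-mutant arrays above background. For Sphk1, the WT minus Rela-/-Relb-/-Rel-/- difference was -2.75 (adjusted p = 0.0297), and the Rela-/-Nfkb2-/- minus Rela-/-Relb-/-Rel-/- difference was -2.71 (adjusted p = 0.0114), with both TNF arrays of the triple mutant above both of its untreated arrays. Of 24 alternative fits, 16 kept the Ptges call, 12 the Sphk1 call against WT and 23 the Sphk1 call between the mutant lines. With median scaling the Ptges call (limma adjusted p = 0.107) and the Sphk1 call against WT (0.0911) were lost. What part the deleted genes and the immortalized lines have in these differences cannot be told apart.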

How the results depend on the processing

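The 16 calls made for the 5 genes kept their direction in every limma refit, and 35 of 372 such refits missed the threshold. The methods' t-test is not among the 372. After adjustment that test called 0 of the 5 genes for TNF in each genotype and 0 for untreated Rela-/-Nfkb2-/- against WT. It uses the compared groups alone, with few residual degrees of freedom, which limits what it can call. Numbers of called genes are listed next, by comparison, where they moved to or from 0 or by a ratio over 1.5. Smaller moves, also from leaving out 1 array, are not listed. Among them, the fit of the compared groups alone lost Sphk2 for untreated Rela-/-Nfkb2-/- against WT (limma adjusted p = 0.063). The authors' normalized values added Ptgs2 for untreated Rela-/-Relb-/-Rel-/- against WT (limma adjusted p = 0.0206). For the TNF response in WT (2 genes called), median scaling gave 1, the filter for probes above background on all 12 arrays (which leaves 2 genes, Sphk1 and Sphk2) gave 0, the methods' t-test after adjustment gave 0, and leaving out 1 array gave 1 to 2. For Rela-/-Nfkb2-/- (2) the all-array filter gave 0, the mean of a gene's probes 1, the fit of the compared groups alone 1, the adjusted t-test 0, and leaving out 1 array 1 to 2. For Rela-/-Relb-/-Rel-/- (2) the all-array filter gave 1, the fit of the compared groups alone 0 and the adjusted t-test 0. For WT minus Rela-/-Nfkb2-/- (0) a background offset of 50 gave 1 (Ptges, 1.17, adjusted p = 0.0158) and no background correction gave 1 (Ptges, 1.10, adjusted p = 0.018). For WT minus Rela-/-Relb-/-Rel-/- (2) median scaling gave 0, the authors' normalized values 1, no detection filter 1, the all-array filter 0, the fit of the compared groups alone 1, and leaving out 1 array 0 to 2. For Rela-/-Nfkb2-/- minus Rela-/-Relb-/-Rel-/- (1) the authors' normalized values gave 2 (Ptges, 1.70, adjusted p = 0.0463), and leaving out 1 array gave 0 to 2. For untreated Rela-/-Nfkb2-/- against WT (4) the all-array filter gave 2 and the adjusted t-test 0, and for untreated Rela-/-Relb-/-Rel-/- against WT (3) the all-array filter gave 1. Apart from the filter, which tests fewer genes, and the smaller fits, which use fewer arrays, the cause was not tested. Median scaling moved the median of all features in WT to -0.23. The replicate block, within genotype or over all arrays, left 2, 2 and 2 genes called for TNF, 0, 2 and 1 for the differences and, over all arrays, 4 and 3 untreated, and changed no call. Signals near background limit Ptges in both mutant lines and Ptgis in Rela-/-Nfkb2-/- cells, where folds are bounds. They also limit Ptgs2 in the untreated groups. There its probe was above background on 1 of 2 arrays in WT and in Rela-/-Nfkb2-/- cells, and on none in Rela-/-Relb-/-Rel-/- cells.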
